A study of Mus musculus with 4 samples.

Results

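The Mx1 and Mx2 locus on chromosome 16 and the Zc3hav1 locus on chromosome 6 were described here by their histone H4 acetylation peaks in mouse macrophages. Every peak of the 4 deposited lists that overlapped mm9 chr16:97650000-97800000 (a window of 150 kb that holds Mx1 and Mx2) or chr6:38240000-38320000 (80 kb, Zc3hav1) was a member. There were 87 such peaks among 175801 in all, 59 in the Mx1-Mx2 window and 28 in the Zc3hav1 window. The loci were chosen on the high scores of their peaks in the lists from LPS-treated cells, so the LPS contrasts below are descriptions and not tests.

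The study mapped acetylated histone H4 by chromatin immunoprecipitation and sequencing in primary bone marrow-derived macrophages of C57BL/6 mice on day 7 of differentiation. The cells were either HDAC3 +/-, the control that the labels call wild type (wt) and that carries a single working allele, or HDAC3 -/- (HDAC3 KO). Each genotype was left untreated or given lipopolysaccharide (LPS, a component of the Gram-negative cell wall) at 100 ng/ml for 4 h (stimulated). Each of these 4 groups had 1 library, so no difference below can be set against a spread between replicates, and no p-value was computed. The method by which HDAC3 was removed, the age of the animals and the number of animals behind a library are not given in the sources used here.

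Acetylated histone H4 is found at promoters and enhancers in use, and HDAC3 removes acetyl groups from histones as the catalytic subunit of corepressor complexes. In macrophages, LPS acts through TLR4 and induces type I interferon, which in turn switches on interferon-stimulated genes. Mx1 and Mx2 are dynamin-like GTPases of this class, the former active in the nucleus against influenza-like viruses and the latter in the cytoplasm against others such as vesicular stomatitis virus. Zc3hav1 encodes ZAP (also called PARP13), a zinc-finger protein that binds CpG-rich viral RNA. C57BL/6 mice carry disrupted alleles of both Mx genes, and RefSeq lists Mx1 and Mx2 of this strain as transcribed pseudogenes. In the RefSeq gene order (GRCm38.p6) Mx1 lies between Bace2 and Fam3b, Mx2 between the pseudogene Gm9242 and Tmprss2, and Zc3hav1 between its paralog Zc3hav1l and the pseudogene Rpl30-ps1.

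Of the 3 members, Zc3hav1 had an entry in the RefSeq promoter table (GRCm38.p6, minus strand). Its 300 bases, from 250 before to 50 after the start, are shown because H4 acetylation marks active promoters. Capitals mark each CG dinucleotide.
Zc3hav1: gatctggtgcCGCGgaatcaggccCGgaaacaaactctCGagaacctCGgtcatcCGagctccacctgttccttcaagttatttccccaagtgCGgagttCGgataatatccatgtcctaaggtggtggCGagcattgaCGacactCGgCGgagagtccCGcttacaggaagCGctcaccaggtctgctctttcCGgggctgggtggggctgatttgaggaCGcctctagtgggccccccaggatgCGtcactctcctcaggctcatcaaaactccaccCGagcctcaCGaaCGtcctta
This promoter held 20 CG dinucleotides, against a median of 7 over the 32851 promoters of the table, and 26.5% of promoters held as many or more. Its GC content was 58.0%, against a median of 52.7%. The core of the interferon-stimulated response element, searched as GAAANNGAA on both strands, was not in this window, nor was the gamma-activated site TTCNNNGAA, which reads the same on both strands and may share bases with the former. These letters were in 8.56% and 8.30% of all promoters. Of the other interferon-stimulated genes listed for this search, 19 had a promoter in the table, of which 13 held the first motif and 4 the second. The table is on another build than the peaks, so the place of this promoter relative to the peaks was not determined, and no peak below is assigned to a gene's start.

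Peaks were set in groups wherever more than 3 kb without a peak in any list separated them, a distance chosen after the data were seen. The Mx1-Mx2 window then held 3 groups. Group 1 spanned 30.3 kb (chr16:97671282-97701605), group 2 spanned 7.74 kb (chr16:97754784-97762523) and group 3 spanned 11.4 kb (chr16:97771962-97783374). A stretch of 53.2 kb with no peak in any library separated groups 1 and 2. The Zc3hav1 window held 4 groups: group 1 of 1.47 kb (chr6:38248296-38249760), group 2 of 10.4 kb (chr6:38286388-38296771), group 3 of 5.07 kb (chr6:38301316-38306387) and group 4 of 1.43 kb (chr6:38309890-38311321).

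In the Mx1-Mx2 window, acetylation peaks were sparse before stimulation and dense after LPS in both genotypes. Peaks covered 5636 bp in untreated wt and 24502 bp in stimulated wt. In HDAC3 KO they covered 1461 bp when untreated and 26932 bp with LPS. The length with LPS was therefore 4.35 times the untreated length in wt and 18.4 times in HDAC3 KO. Over whole lists the same ratios were 1.06 in wt and 1.38 in HDAC3 KO. Peaks numbered 10 and 28 in wt without and with LPS, and 1 and 20 in HDAC3 KO.

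**Figure D1:**
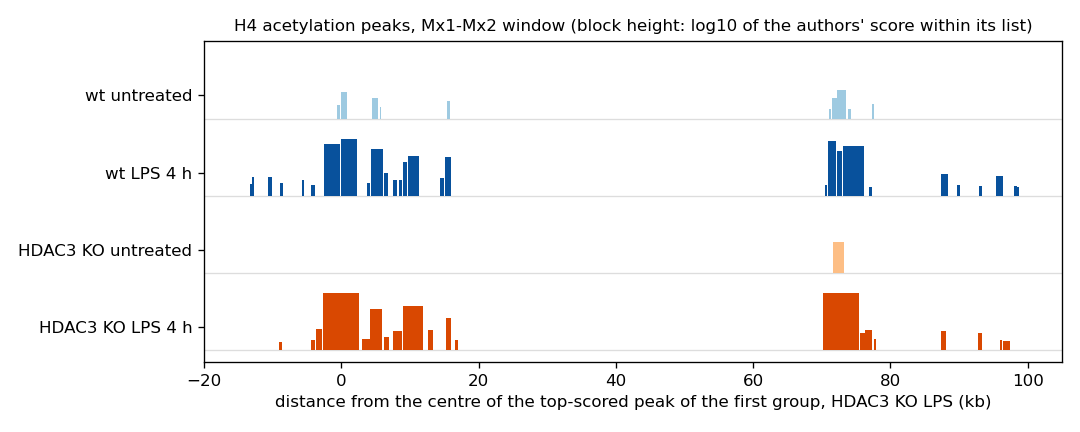
Peaks of the Mx1-Mx2 window in the 4 libraries. The x axis is the distance in kb from the centre of the top-scored peak of group 1 in stimulated HDAC3 KO, each block spans a peak, and block height is log10 of the authors' score, which is comparable only within a row. Untreated HDAC3 KO has 1 peak, in group 2, while both stimulated rows have peaks in all 3 groups.

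The strongest peaks of group 1 lay at its centre. Untreated wt had a pair of small peaks there, of 372 bp (score 78.7) and 886 bp (chr16:97684560-97685445, score 247). Scores were assigned by the authors, on a scale that is not stated, and are read here only within a list: the higher of these scores was in the top 24.4% of the untreated wt list. Stimulated wt had a pair of peaks of 2320 bp (chr16:97682155-97684474, score 1904, top 2.21% of its list) and 2388 bp (chr16:97684565-97686952, score 3100). Untreated HDAC3 KO had no peak in group 1. Stimulated HDAC3 KO had a single peak of 5177 bp (chr16:97682051-97687227, score 3100), among the widest 0.676% of its list. The value 3100 was shared by 288 peaks in the stimulated wt list and 370 in the stimulated HDAC3 KO list, so peaks at it cannot be ranked among themselves. With LPS the acetylated stretch of wt reached 1876 bp further on the lower side and 1507 bp further on the higher side than when untreated. Its outer edges in stimulated HDAC3 KO lay 104 and 275 bp beyond those of stimulated wt.

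Further regions of group 1 had peaks in both stimulated libraries. At chr16:97688836-97690666 untreated wt had 2 peaks covering 1125 bp (highest score 151). Stimulated wt had 1 peak of 1730 bp there (score 1256, top 4.87% of its list), and stimulated HDAC3 KO 1 of 1735 bp (score 825, top 9.64%). At chr16:97693593-97696587 neither untreated library had a peak. Stimulated wt had peaks of 555 bp (score 433) and 1670 bp (score 756), and stimulated HDAC3 KO had 1 peak of 2995 bp (score 1108, top 6.05%). At chr16:97699747-97700659 the peak was 473 bp wide in untreated wt (score 118), 913 bp in stimulated wt (653) and 761 bp in stimulated HDAC3 KO (394). Untreated HDAC3 KO had a peak at none of these places. Over the whole of group 1, peaks covered 2856 bp in untreated wt, 14986 bp in stimulated wt, 0 bp in untreated HDAC3 KO and 16956 bp in stimulated HDAC3 KO.

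Group 2 was the part of this window with a peak in every library. In untreated wt 5 peaks covered 2780 bp, the strongest of them 1220 bp wide (chr16:97756900-97758119, score 287, top 20.3% of its list). The peak of untreated HDAC3 KO was 1461 bp wide (chr16:97756348-97757808, score 340, top 18.0%). Stimulated wt had 5 peaks covering 5733 bp, of which 3 carried scores of 2618 (chr16:97755505-97756753), 1144 (chr16:97756841-97757608) and 1619 (chr16:97757714-97760812). Stimulated HDAC3 KO had 4 peaks covering 7291 bp, led by a single one of 5349 bp (chr16:97754784-97760132, score 3100), among the widest 0.621% of its list. In the merged region chr16:97754784-97760941 the extension with LPS was uneven. In wt the peaks reached 539 bp further on the lower side and 1973 bp further on the higher side, and in HDAC3 KO 1564 and 3133 bp. The untreated wt edges were set by small peaks scored 59.7 and 59.2, which untreated HDAC3 KO lacked. The extensions are therefore not like for like between the genotypes.

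Group 3 had peaks in the stimulated libraries only, and each peak scored 160.1 or less. Stimulated wt had 6 peaks covering 3783 bp with scores of 53.7 to 160.1, and stimulated HDAC3 KO had 4 covering 2685 bp with scores of 56.0 to 128.1. The highest of these scores was in the top 46.0% of the stimulated wt list, and the lowest wt score in the top 95.2%. In stimulated HDAC3 KO they ran from the top 54.2% to the top 92.1%. The lowest score anywhere in either stimulated list was 50.0, so several of these peaks lay near that floor. Group 3 was the group of the window in which HDAC3 KO had the shorter covered length with LPS. The merged regions chr16:97771962-97773093, chr16:97777398-97778022 and chr16:97779991-97781039 had a peak in both stimulated libraries.

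In the Zc3hav1 window the groups behaved differently from each other. Over the whole window, peaks covered 5210 bp in untreated wt, 9725 bp in stimulated wt, 2876 bp in untreated HDAC3 KO and 13664 bp in stimulated HDAC3 KO. The numbers of peaks were 6, 7, 3 and 12 in the same order. With LPS the covered length was 1.87 times that of untreated cells in wt and 4.75 times in HDAC3 KO.

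**Figure D2:**
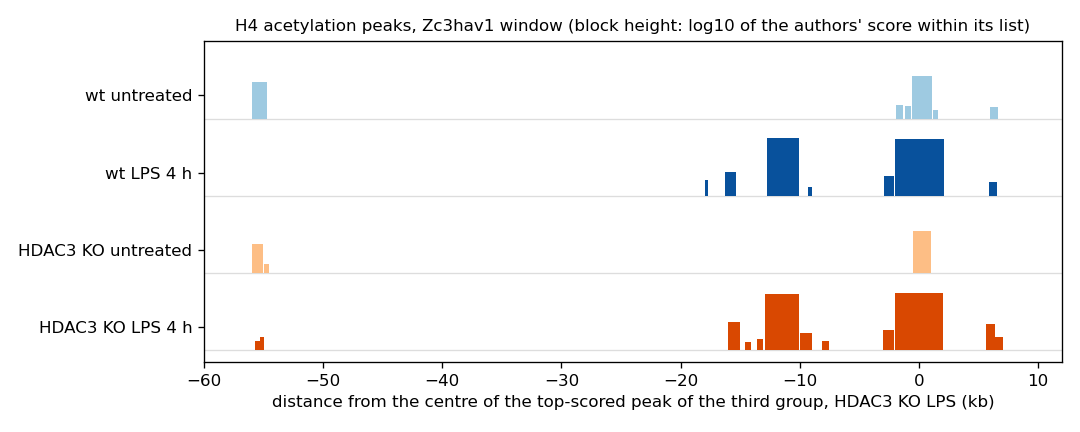
Peaks of the Zc3hav1 window in the 4 libraries, drawn as blocks with height by log10 of the authors' score, comparable only within a row. The x axis is the distance in kb from the centre of the top-scored peak of group 3 in stimulated HDAC3 KO. Group 3, at 0, has a peak in every row, group 2, to its left, only in the stimulated rows, and group 1, at the far left, in every row but stimulated wt.

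Group 3 was acetylated before stimulation in both genotypes. Its main peak was 1705 bp wide in untreated wt (chr6:38303695-38305399, score 878, top 2.16% of its list) and 1518 bp in untreated HDAC3 KO (chr6:38303782-38305299, score 849, top 3.12%). Untreated wt had 3 further small peaks beside it, with scores of 51.4 to 78.7. With LPS the main peak was 4105 bp wide in wt (chr6:38302283-38306387) and 4092 bp in HDAC3 KO (chr6:38302257-38306348), each scored 3100. The edges of these LPS peaks lay 26 and 39 bp apart between the genotypes. Relative to untreated HDAC3 KO, the LPS peak reached 1525 bp further on the lower side and 1049 bp further on the higher side. In wt the outer edges, small peaks included, moved outward by 61 and 515 bp. Untreated HDAC3 KO had no such small peaks, so these extensions are not like for like between the genotypes. The main peak alone went from 1705 to 4105 bp in wt and from 1518 to 4092 bp in HDAC3 KO. A second region of this group, chr6:38301316-38302173, had a peak in both stimulated libraries and in neither untreated one, of 817 bp (score 135) in wt and 858 bp (score 146) in HDAC3 KO.

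Group 2, which ended 4.54 kb before group 3, had no peak in either untreated library. Its main peak was 2670 bp wide in stimulated wt (chr6:38291539-38294208, score 3138, rank 24 of 39550 by score, top 0.0607%) and 2888 bp in stimulated HDAC3 KO (chr6:38291386-38294273, score 2998, rank 435 of 45589, top 0.954%). The wt rank lay just above the 288 peaks tied at 3100 in its list, and the HDAC3 KO rank below the 370 tied in its own. These ranks are therefore not compared between the lists. The smaller peaks around the main peak numbered 3 in stimulated wt (scores 54.5 to 192) and 5 in stimulated HDAC3 KO (55.3 to 273). The whole group covered 4065 bp in stimulated wt and 6584 bp in stimulated HDAC3 KO, and the difference of 2519 bp was the largest between the stimulated libraries among the 7 groups of both windows.

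Group 1 of the Zc3hav1 window went the other way with LPS. It was a peak of 1261 bp in untreated wt (chr6:38248310-38249570, score 569, top 6.35% of its list), and stimulated wt had no peak there. In HDAC3 KO, 2 peaks covered 1358 bp when untreated (higher score 290, top 22.1%) and 2 covered 699 bp with LPS (higher score 81.4, top 72.1%). It lay 36.6 kb from group 2, at the lower end of the window, and which gene it belongs to was not determined. Group 4 was small, with 680 bp in untreated wt (score 70.0), 738 bp in stimulated wt (85.2), no peak in untreated HDAC3 KO and 1431 bp in stimulated HDAC3 KO (higher score 229).

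**Figure D3:**
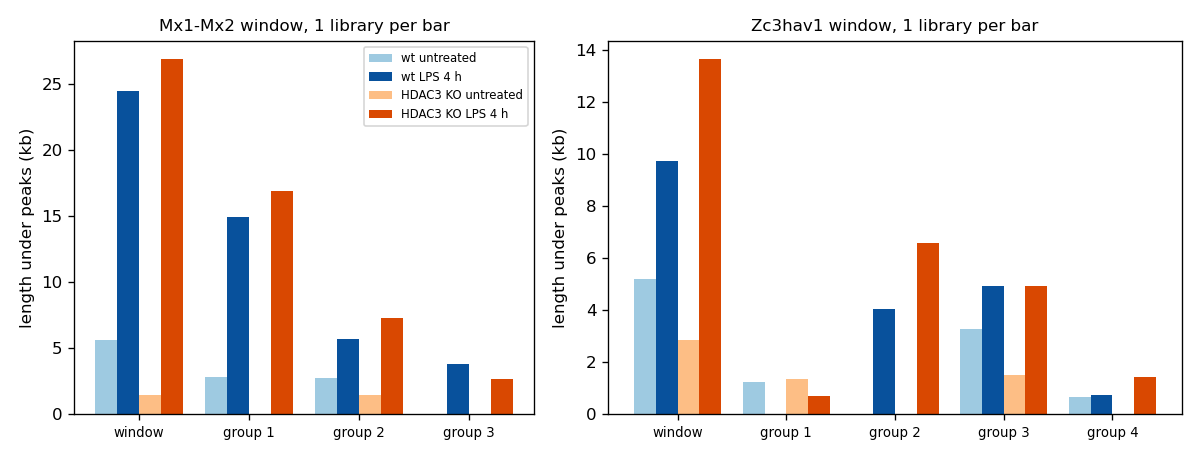
Length under peaks in kb (y axis) for the whole window and for each group of peaks (x axis), with a bar for each library and no error bar because each group of samples had 1 library. The stimulated bars are the highest in both windows, at 24.5 and 26.9 kb in the Mx1-Mx2 window and 9.72 and 13.7 kb in the Zc3hav1 window, while group 1 of the Zc3hav1 window is highest in the untreated libraries.

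The members were then counted by whether the other library of a comparison had a peak at the same place, with an overlap of at least 1 bp. In the Mx1-Mx2 window, 21 of the 28 peaks of stimulated wt lacked a partner in untreated wt, as did 5 of 7 in the Zc3hav1 window. Over the whole list 31.7% had none. In stimulated HDAC3 KO, 19 of 20 and 9 of 12 peaks had no partner in untreated HDAC3 KO, where 39.9% of the list had none. The loci were chosen on this contrast, so nothing is read from these shares. In the opposite direction, 1 of 10 and 1 of 6 untreated wt peaks lacked a partner in stimulated wt (35.6% of the list), and 0 of 1 and 1 of 3 untreated HDAC3 KO peaks lacked one in stimulated HDAC3 KO (25.0% of the list). The Zc3hav1 peaks among these lay in group 1.

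Peaks that overlapped across the lists were joined into merged regions, 27 in the Mx1-Mx2 window and 11 in the Zc3hav1 window. A peak in both stimulated libraries and in neither untreated one was found in 9 and 4 of them. Over the genome 6.56% of 62522 merged regions had this pattern. A peak in stimulated wt alone was found in 8 regions of the Mx1-Mx2 window and 1 of the Zc3hav1 window, and in stimulated HDAC3 KO alone in 5 and 3. Over the genome these patterns made up 7.58% and 14.5% of merged regions. A peak in all libraries but untreated HDAC3 KO was found in 4 and 1 regions, and over the genome in 3.45%. A peak in all 4 libraries was found in 1 region of each window, against 28.5% over the genome. No region of either window had a peak in untreated HDAC3 KO without one in untreated wt as well, a pattern of 13.1% of merged regions over the genome. Untreated HDAC3 KO had only 1 and 3 peaks in the windows, so few regions could have shown this pattern. Nothing is read from its absence.

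For the genotype comparison in untreated cells, both windows had less covered length in HDAC3 KO. The difference, HDAC3 KO minus wt, was -4175 bp in the Mx1-Mx2 window and -2334 bp in the Zc3hav1 window, whereas HDAC3 KO covered 1.03 times the length of wt over whole lists. The Zc3hav1 difference lay mostly in weak peaks: with only peaks at or above the median score of their list, or with the 20000 highest scores of each list, untreated wt covered 2.97 kb and untreated HDAC3 KO 2.49 kb, a difference of -0.479 kb. In the Mx1-Mx2 window it was -2.77 kb and -1.58 kb under these settings. Of the untreated wt peaks, 8 of 10 and 4 of 6 had no partner in untreated HDAC3 KO, against 29.3% of the list. Those 12 peaks all scored 247 or less. Conversely, 0 of 1 and 0 of 3 untreated HDAC3 KO peaks lacked a partner in untreated wt (24.6% of the list). Among genome tiles of 150 kb with a peak in any library, 116 of 8584 (1.35%) had a difference as low as that of the Mx1-Mx2 window. Among tiles of 80 kb, 373 of 13205 (2.82%) had one as low as that of the Zc3hav1 window. Each window coincides with a tile and is counted among them. A tile with less untreated wt length than the size of the window's difference could not reach it. These shares therefore also reflect how much length the tiles held, and the number of tiles so limited was not counted. The median difference was 0 bp for both tile sizes. These tile counts used all peaks and were not recomputed under the score limits.

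With LPS the sign of the genotype difference was the opposite one in both windows. The comparisons by genotype and by LPS share their libraries and are not independent of each other. HDAC3 KO covered 2430 bp more than wt in the Mx1-Mx2 window, a ratio of 1.10, and 3939 bp more in the Zc3hav1 window, a ratio of 1.41. Over whole lists the ratio was 1.35, and after each list was divided by its total covered length the ratios were 0.816 and 1.04. The sign in the Mx1-Mx2 window also turned with the 20000 highest scores of each list, where stimulated wt covered 16.4 kb and stimulated HDAC3 KO 16.0 kb. The direction in that window thus depended on the scaling and on the score limit, whereas in the Zc3hav1 window HDAC3 KO covered more under each of these settings. Of the peaks of stimulated HDAC3 KO, 5 of 20 and 5 of 12 had no partner in stimulated wt (35.3% of the list). Of those of stimulated wt, 8 of 28 and 1 of 7 had none in stimulated HDAC3 KO (19.5% of the list). In bases, 78.6% of the length covered in stimulated wt in the Mx1-Mx2 window was also covered in stimulated HDAC3 KO, and 96.1% in the Zc3hav1 window, where the figure for the whole lists was 81.3%. In the other direction, 71.6% and 68.4% of the HDAC3 KO length was covered in wt, against 60.3%. A difference as high as that of the Mx1-Mx2 window was found in 22.3% of tiles of 150 kb, and one as high as that of the Zc3hav1 window in 8.58% of tiles of 80 kb.

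The LPS change of each window was set beside that of all genome tiles of the same length with a peak in any library. Each window coincides with a tile, so the counts of tiles below include the window itself where it qualifies. In the Mx1-Mx2 window, the covered length with LPS exceeded the untreated length by 18.9 kb in wt and 25.5 kb in HDAC3 KO. A difference of 5 kb or more was found in 5.09% of 8584 tiles in wt and 12.4% in HDAC3 KO, and one as large as that of the window in 25 tiles (0.291%) and 30 tiles (0.349%). In the Zc3hav1 window the excess was 4.51 kb in wt and 10.8 kb in HDAC3 KO. Of 13205 tiles of 80 kb, 3.12% had a difference of 5 kb or more in wt, which the Zc3hav1 window itself did not reach, and 7.36% in HDAC3 KO, which it did. A difference as large as that of the window was found in 3.74% of tiles in wt and 1.77% in HDAC3 KO. The windows were chosen on this contrast, so these positions describe them and support nothing further.

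**Figure D4:**
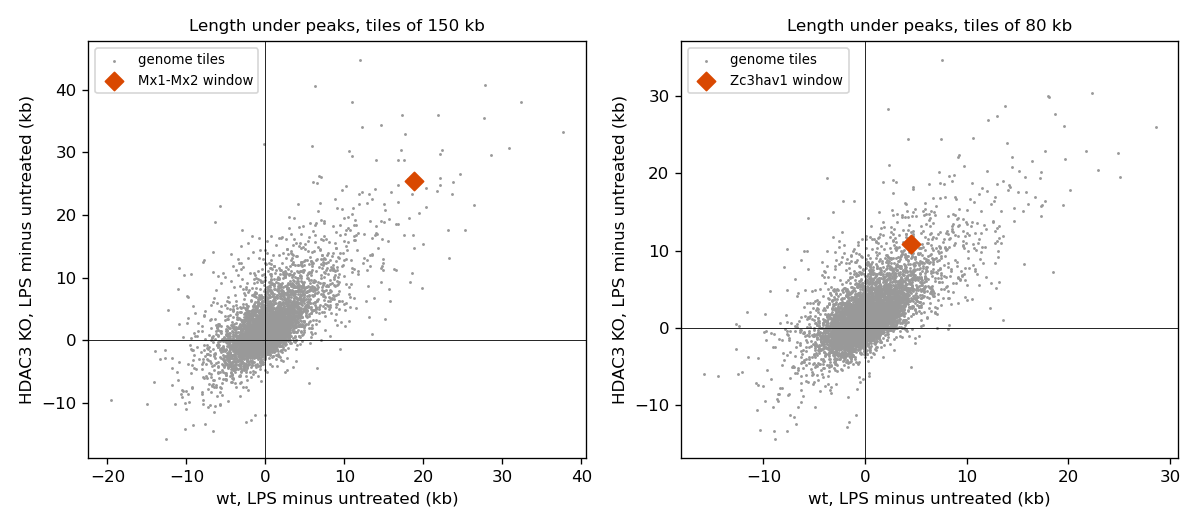
LPS minus untreated length under peaks in wt (x axis, kb) and in HDAC3 KO (y axis, kb) for genome tiles with a peak in any library (grey points) of 150 kb (left) and 80 kb (right). The diamonds mark the Mx1-Mx2 window, at 18.9 and 25.5 kb, and the Zc3hav1 window, at 4.51 and 10.8 kb.

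Within the wide acetylated stretches of the Mx1-Mx2 window, some wt peaks were broken by short gaps at places where HDAC3 KO peaks ran on. In group 1, untreated wt had a gap of 157 bp (chr16:97684403-97684559) and stimulated wt 1 of 90 bp (chr16:97684475-97684564) that overlapped it, and 1 peak of stimulated HDAC3 KO spanned both. In group 2, untreated wt had a gap of 61 bp (chr16:97756839-97756899) and stimulated wt 1 of 87 bp (chr16:97756754-97756840), and 1 peak of each HDAC3 KO library spanned both. Gaps of up to 200 bp between neighbouring peaks of this window numbered 3 in untreated wt, 11 in stimulated wt, 0 in untreated HDAC3 KO and 6 in stimulated HDAC3 KO. The peaks numbered 10, 28, 1 and 20 in the same order. The 1 peak of untreated HDAC3 KO allowed no gap, and a list with more peaks can have more gaps. A stimulated HDAC3 KO peak ran across 5 of the 11 gaps of stimulated wt, and a stimulated wt peak across 1 of the 6 gaps of stimulated HDAC3 KO. Gaps also differed between the wt lists: an untreated wt peak ran across 1 of the 11 gaps of stimulated wt. Of the 3 gaps of untreated wt, a stimulated wt peak ran across 1 and stimulated HDAC3 KO peaks across 3. In the Zc3hav1 window the gaps numbered 3, 1, 1 and 5 in the same order of libraries, among 6, 7, 3 and 12 peaks. More of these gaps lay in HDAC3 KO with LPS than in wt with LPS. There a stimulated HDAC3 KO peak ran across 0 of the 1 gap of stimulated wt, and a stimulated wt peak across 1 of the 5 gaps of stimulated HDAC3 KO. The 3 gaps of untreated wt were spanned by peaks of both stimulated libraries and by none of untreated HDAC3 KO, and the 1 gap of untreated HDAC3 KO was spanned by an untreated wt peak. The peak caller sets where a peak ends, and median peak width over whole lists was 722 bp in stimulated wt and 836 bp in stimulated HDAC3 KO; the part of this list-wide width in the unbroken peaks was not tested.

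The acetylated stretches ended well inside the Mx1-Mx2 window. The outermost peaks of the 4 lists lay 21.3 kb from its lower edge and 16.6 kb from its higher edge, both in stimulated wt, with scores of 68.9 and 53.7. In the 100 kb on either side, a peak was listed only in untreated HDAC3 KO, 1 of 482 bp (score 84.7), 75.0 kb beyond the higher edge. Around the Zc3hav1 window the edge mattered more. Its first peak lay 8.29 kb inside the lower edge (untreated HDAC3 KO, score 290). The nearest peak outside lay 3.75 kb beyond the higher edge (stimulated HDAC3 KO, 515 bp, score 73.0). The 100 kb beyond that edge held 3049 bp under peaks in untreated wt, 4212 bp in stimulated wt, 2853 bp in untreated HDAC3 KO and 5760 bp in stimulated HDAC3 KO.

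Over whole lists, the libraries held 39550 to 48706 peaks that covered 35.4 to 50.4 Mb, with the longest total in stimulated HDAC3 KO. Read depth was not given, so the covered length and the number of peaks cannot be told apart from sequencing depth or immunoprecipitation yield. The labelled cell type and the deletion of Hdac3 were not checked against markers, because gene positions on the build of the peaks were not used here.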

How the data were processed

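Acetylated H4 was measured by ChIP-seq in 4 libraries, 1 for each genotype and treatment. Bowtie and the build mm9 are named in the submitters' processing notes, and per the file headers the authors called peaks with MACS for each library against input. Versions, settings and the input libraries are not given in the sources used here. Each deposited list gave the start, end and score of every peak per library, and the score is the authors' value, whose scale is not stated. The lists hold no reads, so depth is unknown. Starts were converted to count from 1.

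Peaks were clipped to the window, covered bases were summed, and overlaps of at least 1 bp were counted (Python 3.11.15, numpy 2.4.6, pandas 2.3.3, matplotlib 3.10.9). These counts were tested on simulated lists, where 32 of 32 were recovered exactly over 8000 simulated regions. A simulated region held at most 1 peak per library. Peaks split in 1 list and joined in another were thus not simulated, nor were groups, gaps and edges. The members and lists were chosen with earlier results of these data known. The genes named are the 3 members and, without values, their neighbours. The wider interferon list was used for promoter letters alone, since the gene table is on GRCm38 and coordinates were not converted. The alternatives were other peak sets, window edges, scaling and merging.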

Additional observations from a re-analysis of the deposited data

Results flagged for a closer look

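The genotype difference in covered length, HDAC3 KO minus wt, had opposite signs in untreated and in stimulated cells at several places. With 1 library per group this difference between treatments was not tested. In the Mx1-Mx2 window it was -4175 bp untreated and 2430 bp with LPS. The signs were opposite in group 1 (-2856 and 1970 bp) and group 2 (-1319 and 1558 bp). Group 3 had a difference of 0 bp untreated and -1098 bp with LPS. In the Zc3hav1 window it was -2334 bp untreated and 3939 bp with LPS. The signs were opposite in group 3 (-1751 and 28 bp) and group 4 (-680 and 693 bp). They were not in group 1 (97 and 699 bp) or in group 2 (0 and 2519 bp), which held most of the window's difference with LPS. After division by the total covered length of each list, the ratios of HDAC3 KO to wt with LPS were 0.816 in the Mx1-Mx2 window, 0.84 and 0.944 in its groups 1 and 2, 1.04 in the Zc3hav1 window, and 0.746 and 1.44 in its groups 3 and 4. The opposite sign thus held after scaling for the Zc3hav1 window and its group 4 and not for the others scaled here. The part of the longer stimulated HDAC3 KO list in these differences was not tested further.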

How the results depend on the processing

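With 1 library per group, no replicate could be left out. Covered length in the 4 libraries and the number of regions with a peak in both stimulated and neither untreated library were recomputed in each window, and values within 1.5 times of the reported one are not repeated. With only peaks at or above the median score of their list, the Mx1-Mx2 window covered 16.8 kb in stimulated HDAC3 KO (26.9 kb reported), the Zc3hav1 window 2.97 kb in untreated wt (5.21 kb), and the regions numbered 1 (9 reported) and 2 (4 reported). With each list cut to its 20000 highest scores, the Mx1-Mx2 window covered 3.04 kb in untreated wt (5.64 kb) and 16.0 kb in stimulated HDAC3 KO, the Zc3hav1 window 2.97 kb in untreated wt and 8.79 kb in stimulated HDAC3 KO (13.7 kb), and the regions numbered 2 in each window. With windows 10 kb shorter at each end, the Zc3hav1 window lost its group 1. It also lost group 4 in both wt libraries and most of group 4 in stimulated HDAC3 KO. The shorter window covered 3.27 kb in untreated wt and 1.52 kb in untreated HDAC3 KO (2.88 kb). With peaks within 500 bp merged, the regions numbered 5 and 1. Most of the regions were therefore weak or close to other peaks. The 20000 highest scores also turned the sign of the genotype difference with LPS in the Mx1-Mx2 window, to -0.385 kb. Longer windows, peaks wholly inside the window and division by the total covered length moved none of these values by over 1.5 times. The unknown depth limits every comparison of weak peaks.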
